A study of Mus musculus with 10 samples.

Results

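The synaptonemal complex genes Sycp1, Sycp2, Sycp3, Syce1, Syce2, Syce3 and Tex12 were followed by RNA-seq through mouse germ cell induction. They were chosen by symbol and are 7 of the 36066 genes in the expression table, and all 7 were present and passed the filter on low values. The study compared germ cells induced from parthenogenetic stem cells with those induced from stem cells of fertilized embryos and with germ cells of the embryo. ESCs were a female embryonic stem cell line, and pESCs were stem cells from activated, unfertilized oocytes, which carry maternal chromosomes alone. ESC-PGCLCs and pESC-PGCLCs were primordial germ cell-like cells made from them through an epiblast-like state. Induction took 4 days with the cytokine BMP4 at 500 ng/ml, LIF at 1000 IU/ml, and SCF and EGF at 100 and 50 ng/ml. PGCs were primordial germ cells, for which the labels give no embryonic day and no sex. The study's methods describe PGCs from female embryos of 2 stages, and which stage these libraries hold is not stated. All 5 groups are labelled C57BL6, no knockout or knockdown was made, and the study's methods describe an Actin-GFP background for the stem cells, culture on mouse embryonic fibroblasts and sorting of the germ cells by the surface markers CD61 and SSEA1. Each group had 2 libraries. The study calls them biological replicates, while the labels do not say whether they came from separate cultures, lines or embryos, so the p-values measure the spread between these libraries.

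The synaptonemal complex is the protein zipper that holds homologous chromosomes together during meiotic prophase. SYCP2 and SYCP3 build the lateral elements along each chromosome axis, SYCP1 forms the transverse filaments between them, and SYCE1, SYCE2, SYCE3 and TEX12 make up the central element, with TEX12 and SYCE2 assembling together. In the fetal ovary the complex forms once germ cells enter meiosis, but transcripts of several of its genes are known to appear in primordial germ cells before that. In pluripotent and somatic cells such germline genes are kept low by DNA methylation and by a Polycomb complex that holds E2F6 and the E-box binding partners MGA and MAX.

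Levels are TPM, which correct read counts for the length of each gene and for library size, so they can be set side by side between genes. Reads recovered from the TPM and exon lengths came to between 6779838 and 18572901 a library, lowest in ESC-PGCLCs. Differences are on the log2(TPM + 1) scale from limma, fitted on 27259 genes, and called genes are those with an adjusted p (Benjamini-Hochberg over all genes) under 0.05 and at least a 2-fold change. The smallest p of a two-sided exact permutation test of 2 libraries against 2 is 0.333, so every p here depends on the variances that limma estimates. The 6 pluripotency markers summed to between 619 and 1009 TPM in the stem cell libraries and to between 134 and 220 TPM in the germ cell libraries, and the 9 PGC markers summed to between 394 and 912 TPM and to between 3507 and 6083 TPM. Nanog and Zfp42 made up most of the first sum in stem cells, and Dppa3 most of the second in every group. Not every member moved with its sum. In group means Sox2 was higher in ESC-PGCLCs (104 TPM) and PGCs (79.2 TPM) than in ESCs (38.7 TPM). It fell from 49.1 TPM in pESCs to 26.8 TPM in pESC-PGCLCs. Prdm14 was at 17.6 TPM in ESCs and 17.4 TPM in ESC-PGCLCs. One defining marker, Pou5f1 (Oct4), stood low against the label of every group. It was at 7.49 to 23.5 TPM in the stem cells, where Nanog was at 403 to 674 TPM. Its levels were 0.374 and 0 TPM in ESC-PGCLCs, 2.98 and 2.88 TPM in pESC-PGCLCs and 3.14 and 1.63 TPM in PGCs. The paper describes Oct4 as highly expressed in both kinds of stem cell, and why Pou5f1 was low here was not tested.

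All 7 genes rose from stem cells to PGCLCs, from both origins. From ESCs to ESC-PGCLCs, 7 of 7 were called higher, where 15.3% of all genes tested were, and the median log2 fold change was 4.58, beside 0.05 over all genes. From pESCs to pESC-PGCLCs, 7 of 7 were called higher, where 20.8% of all genes tested were, with a median of 4.61 beside 0.22 over all genes. PGCs were likewise higher in 7 of 7 genes than ESCs, where 23.4% of all genes tested were called higher, and than pESCs, where 26.9% were, with medians of 3.87 and 3.83. These comparisons share stem cell or germ cell libraries and are not independent of each other. In ESCs the 7 genes summed to 95.5 and 95.9 TPM, and in pESCs the sum was 98.7 and 122 TPM. The sum reached 2933 and 2944 TPM in ESC-PGCLCs, 2054 and 1868 TPM in pESC-PGCLCs, and 1467 and 1948 TPM in PGCs.

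**Figure D1:**
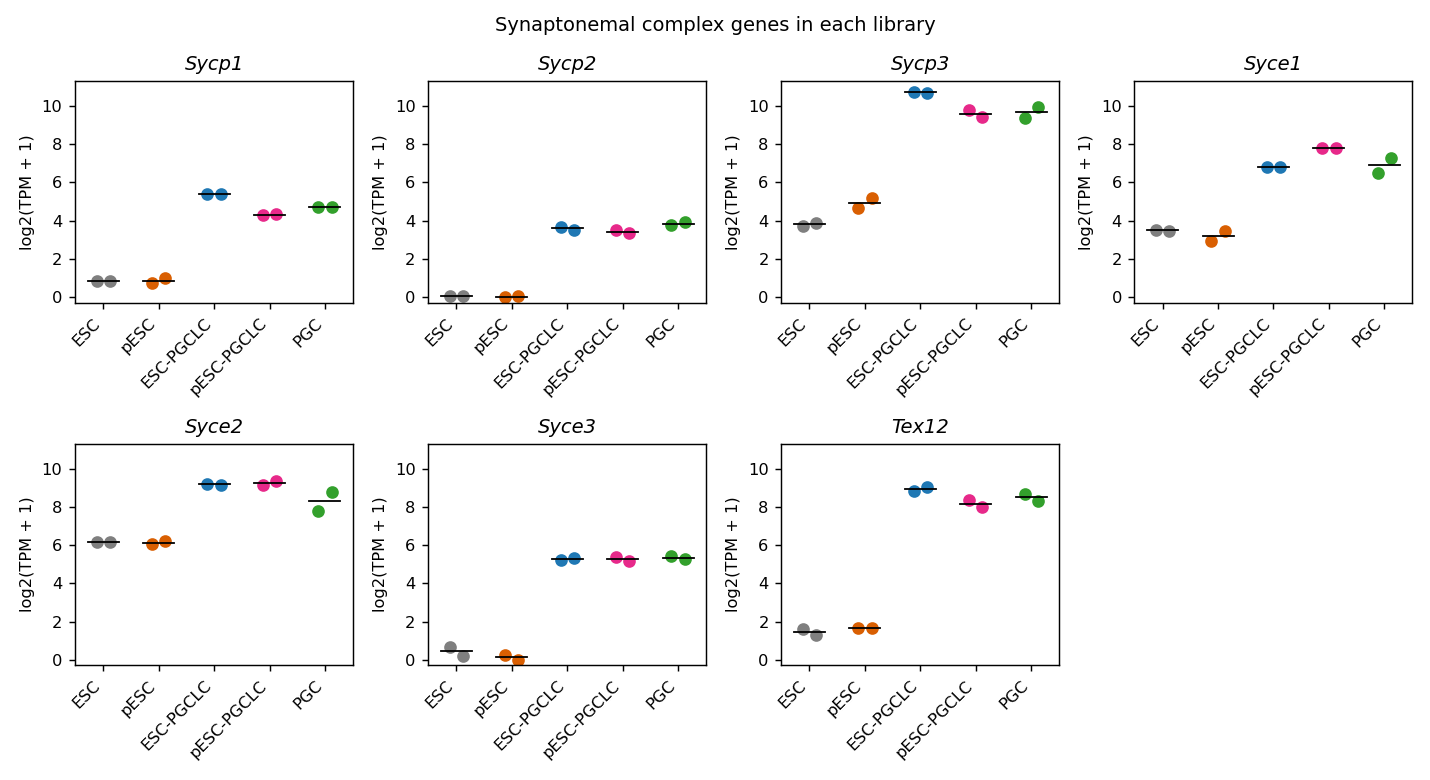
Level of each synaptonemal complex gene as log2(TPM + 1) in the 10 libraries, by group. Points are libraries and the line is the mean of a group's 2 libraries. In every panel the 6 germ cell libraries lie above the 4 stem cell libraries.

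Markers of other cells moved with the same comparisons. The 7 gonadal somatic markers in the table (of 8 listed, Amh not analysed here) summed to between 3.79 and 4.80 TPM in the stem cell libraries, 15.7 and 19.9 TPM in ESC-PGCLCs, 39.6 and 34.4 TPM in pESC-PGCLCs and 77.1 and 68.4 TPM in PGCs. Of these, 1 had a mean of at least 1 TPM in each kind of stem cell, 3 in ESC-PGCLCs, 6 in pESC-PGCLCs and 7 in PGCs, and Nr5a1 was listed at 0 in ESCs and Nr5a1 and Lhx9 in pESCs. The 6 erythroid markers summed to between 0.109 and 4.42 TPM in stem cells, 453 and 515 TPM in ESC-PGCLCs, 3274 and 2761 TPM in pESC-PGCLCs and 2047 and 1850 TPM in PGCs, with Hbb-bh1 listed at 0 in pESCs. Means of at least 1 TPM were found for 0 of these 6 in ESCs and in pESCs, 4 in ESC-PGCLCs, 5 in pESC-PGCLCs and 4 in PGCs. The 8 fibroblast markers summed to at most 0.512 TPM in stem cells and to between 4.08 and 11.8 TPM in the germ cell libraries, with Col1a2, Postn and Dcn listed at 0 in ESCs and Thy1 in ESC-PGCLCs and PGCs. Means of at least 1 TPM were found for 0 of the 8 in both kinds of stem cell, 1 in ESC-PGCLCs, 3 in pESC-PGCLCs and 3 in PGCs. The part of these cells in the levels of the synaptonemal complex genes was not tested, and in bulk samples fewer cells of a type and less RNA per cell cannot be told apart.

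Sycp1, the transverse filament gene, lies on chr3:102818499-102936100, minus strand (GRCm38, as are all positions here), with 3556 nt of exons. It was low in stem cells, at 0.763 and 0.757 TPM in ESCs and 0.672 and 0.973 TPM in pESCs. Levels were 40.5 and 41.5 TPM in ESC-PGCLCs, 18.3 and 19.0 TPM in pESC-PGCLCs and 24.8 and 24.7 TPM in PGCs. The ESC and pESC libraries overlapped, and the 3 germ cell groups did not overlap with each other. The increase was 4.58 (SE 0.140, adjusted p = 1.28e-06 from limma) from ESCs to ESC-PGCLCs and 3.44 (SE 0.140, adjusted p = 4.2e-06) from pESCs to pESC-PGCLCs. Of its 100-base stretches, 1.04% also occur in other genes, the pseudogene Sycp1-ps1 among them.

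The regions upstream of the start sites are shown for 4 genes, because they hold or lack the letters of the E-box and E2F6 motifs that mark many germline genes. For Sycp1, Sycp3, Tex12 and Syce1, each line gives the 250 bases before the RefSeq start (GRCm38.p6). The bases run 5′ to 3′ on the strand of the gene, with the motif letters in capitals. These 4 genes were picked after their levels were seen, so their motifs were not set against their levels. The E-box searched was CACGTG, which reads the same on both strands, and the E2F6 motif was TCCCGC or its reverse complement GCGGGA, and no match of one overlapped a match of the other in these windows.
Sycp1, chr3:102936101-102936350, minus strand: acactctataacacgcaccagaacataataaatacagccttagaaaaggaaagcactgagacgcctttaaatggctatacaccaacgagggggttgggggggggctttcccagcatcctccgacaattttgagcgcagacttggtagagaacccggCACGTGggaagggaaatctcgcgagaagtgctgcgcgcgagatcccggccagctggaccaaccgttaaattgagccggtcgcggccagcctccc
Sycp3, chr10:88459337-88459586, plus strand: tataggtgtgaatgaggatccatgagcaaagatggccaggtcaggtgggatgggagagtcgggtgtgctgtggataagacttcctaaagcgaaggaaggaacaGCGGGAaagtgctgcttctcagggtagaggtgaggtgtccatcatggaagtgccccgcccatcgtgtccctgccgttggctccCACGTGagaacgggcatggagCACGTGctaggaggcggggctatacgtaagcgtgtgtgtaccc
Tex12, chr9:50561269-50561518, minus strand: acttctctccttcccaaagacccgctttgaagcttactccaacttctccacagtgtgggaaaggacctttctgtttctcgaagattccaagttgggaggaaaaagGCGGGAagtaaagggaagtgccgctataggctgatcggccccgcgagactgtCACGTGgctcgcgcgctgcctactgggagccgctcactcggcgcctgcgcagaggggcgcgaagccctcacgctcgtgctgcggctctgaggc
Syce1, chr7:140787855-140788104, minus strand: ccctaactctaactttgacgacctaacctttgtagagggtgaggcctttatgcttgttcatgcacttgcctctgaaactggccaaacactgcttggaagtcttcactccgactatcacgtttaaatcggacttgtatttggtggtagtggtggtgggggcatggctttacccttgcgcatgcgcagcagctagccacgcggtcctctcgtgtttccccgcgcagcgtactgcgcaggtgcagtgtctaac
Sycp3 held 2 E-boxes and 1 E2F6 motif, Tex12 held 1 of each, Sycp1 held 1 E-box and no E2F6 motif, and Syce1 held neither. Of the other genes, Syce2 has 2 RefSeq starts, the first with 1 E2F6 motif and the second with 1 of each, and the windows of Sycp2 and of the 2 starts of Syce3 held neither. All 7 genes matched. Over 32851 windows of the same length before RefSeq starts, 6.02% held the E-box, 16.9% the E2F6 motif and 1.45% both. The windows held 17 CpG dinucleotides for Sycp1, 12 for Sycp3, 20 for Tex12, 13 for Syce1, 7 for Sycp2, 11 and 24 for the starts of Syce2 and 11 and 5 for those of Syce3, beside a median of 6 and an interquartile range of 2 to 16 over all windows. A match is a description of the letters and not a bound site.

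Sycp2, which encodes a large lateral element protein, lies on chr2:178345293-178407685, minus strand, with 5967 nt of exons. In stem cells it was at the level of single reads, with 2 and 4 reads in ESCs and 0 and 2 reads in pESCs, close to the 3 reads that a count of 0 allows. It reached 11.7 and 10.4 TPM in ESC-PGCLCs, 10.4 and 9.05 TPM in pESC-PGCLCs and 12.5 and 14.0 TPM in PGCs, which made it the least abundant of the 7 genes in each germ cell library. Over the 2 libraries of each group and scaled to library depth, the ratio of its reads in ESC-PGCLCs to those in ESCs was 233 (95% counting interval 106 to 638), and that of pESC-PGCLCs to pESCs was 504 (139 to 4167). These exact intervals cover counting error alone. The fitted increases, which the pseudocount holds down at such low levels, were 3.52 and 3.39 (adjusted p = 3.44e-06 and 6.14e-06 from limma).

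Sycp3, the other lateral element gene and a common marker of meiotic chromosome axes, lies on chr10:88459569-88473236, plus strand, with 1264 nt of exons. It was at 12.4 and 13.8 TPM in ESCs and 24.7 and 35.8 TPM in pESCs. It reached 1702 and 1651 TPM in ESC-PGCLCs, 867 and 685 TPM in pESC-PGCLCs and 666 and 973 TPM in PGCs, the highest level among the 7 genes in each of these libraries. Both ESC-PGCLC libraries were above all other libraries, while pESC-PGCLCs and PGCs overlapped. The increase was 6.90 (SE 0.239, adjusted p = 1.75e-06 from limma) from ESCs to ESC-PGCLCs and 4.65 (SE 0.239, adjusted p = 8.47e-06) from pESCs to pESC-PGCLCs.

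Reads of Sycp3 share their place with those of another gene. Chpt1, which encodes a choline phosphotransferase, runs on the opposite strand and shares 660 exon bases with Sycp3, 52.2% of its exons. The library preparation described in the methods does not mark strand, so in the shared bases the RNAs of both genes cannot be told apart. Chpt1 was at 3.04 to 7.59 TPM in stem cells, 204 and 205 TPM in ESC-PGCLCs, 107 and 86.9 TPM in pESC-PGCLCs and 98.4 and 132 TPM in PGCs. The ratio of Sycp3 to Chpt1 lay between 3.44 and 4.89 in the stem cell libraries and between 6.77 and 8.34 in the germ cell libraries. How the reads were divided between the genes was not tested.

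Syce1 is on chr7:140777229-140787852, minus strand, with 1460 nt of exons, and its product binds SYCP1 in the central element. It was at 10.5 and 10.1 TPM in ESCs and 6.55 and 9.80 TPM in pESCs. Levels were 112 and 111 TPM in ESC-PGCLCs, 222 and 218 TPM in pESC-PGCLCs and 89.9 and 153 TPM in PGCs. Both pESC-PGCLC libraries were above all others, and the PGC libraries lay on either side of those of ESC-PGCLCs. The increase was 3.31 (SE 0.257, adjusted p = 3.17e-05 from limma) by ESC-PGCLCs and 4.61 (SE 0.257, adjusted p = 1.18e-05) by pESC-PGCLCs.

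Syce2, on chr8:84872111-84888221, plus strand, with 1968 nt of exons, was the member with the highest stem cell level. It was at 69.3 and 69.6 TPM in ESCs and 64.5 and 73.6 TPM in pESCs, and made up between 60.2% and 72.6% of the 7-gene sum in those libraries. It was at 581 and 570 TPM in ESC-PGCLCs, 573 and 647 TPM in pESC-PGCLCs and 223 and 433 TPM in PGCs, with both PGC libraries under all 4 PGCLC libraries. Its increases of 3.03 and 3.13 (adjusted p = 6.62e-05 and 8.01e-05 from limma) were the smallest of the 7 genes from either origin.

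Syce3, a short central element gene on chr15:89390174-89410503, minus strand, with 553 nt of exons, had 3 and 1 reads in ESCs and 1 and 0 reads in pESCs. It was at 35.7 and 38.7 TPM in ESC-PGCLCs, 39.9 and 35.0 TPM in pESC-PGCLCs and 42.0 and 37.2 TPM in PGCs, from 87 to 188 reads a library. The 3 germ cell groups overlapped. Scaled to library depth, the ratio of its reads in ESC-PGCLCs to those in ESCs was 108 (95% counting interval 41.5 to 401), and that of pESC-PGCLCs to pESCs was 360 (64.3 to 14270). The fitted increases were 4.82 and 5.13 (adjusted p = 2.69e-06 and 3.78e-06 from limma).

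Tex12, the central element partner of Syce2, lies on chr9:50556819-50561325, minus strand, with 1016 nt of exons. It was at 2.03 and 1.49 TPM in ESCs and 2.13 and 2.16 TPM in pESCs, under the level of Syce2 in each of these libraries. It reached 450 and 522 TPM in ESC-PGCLCs, 323 and 255 TPM in pESC-PGCLCs and 409 and 313 TPM in PGCs. On the fitted scale its increase of 7.47 by ESC-PGCLCs (SE 0.192, adjusted p = 1.11e-06 from limma) and of 6.52 by pESC-PGCLCs (SE 0.192, adjusted p = 1.96e-06) was the largest of the 7 genes. The ratio of Tex12 to Syce2 went from between 0.0214 and 0.0330 in stem cells to between 0.394 and 1.84 in the germ cell libraries.

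The make-up of the 7-gene sum changed with it. Sycp3 made up 12.9% and 14.4% of the sum in ESCs and at most 29.2% in pESCs. Its share was 58.0% and 56.1% in ESC-PGCLCs, 42.2% and 36.7% in pESC-PGCLCs and 45.4% and 50.0% in PGCs. In each germ cell library Sycp3, Syce2 and Tex12 were the 3 most abundant members.

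**Figure D2:**
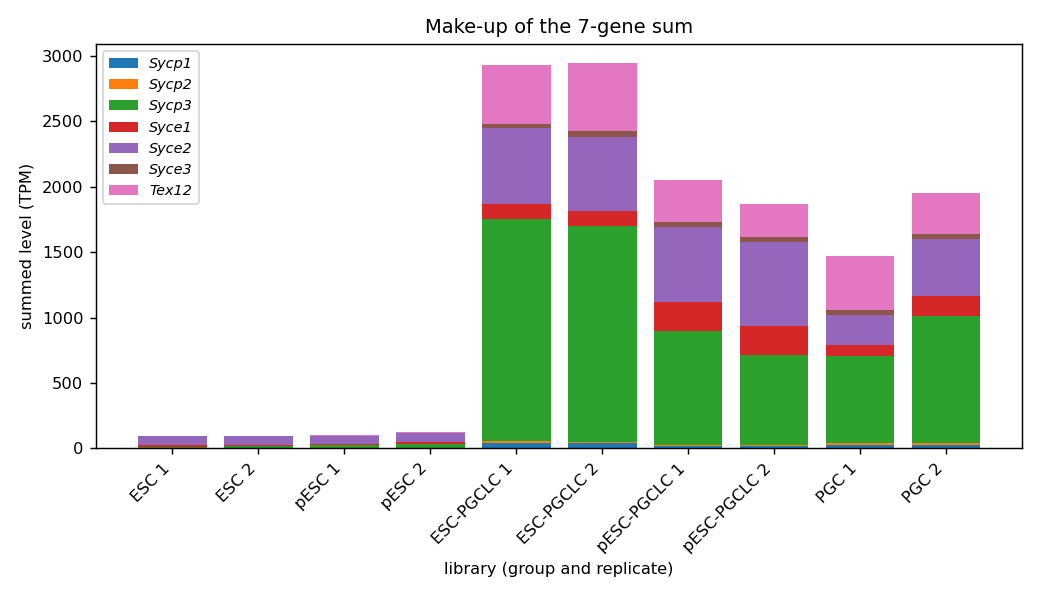
Summed level of the 7 genes in TPM per library (x axis, group and replicate), with each gene as a part of the bar. The stem cell bars reach at most 122 TPM, the ESC-PGCLC bars 2933 and 2944 TPM, and Sycp3 is the largest part in each germ cell bar.

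Between the stem cells of the 2 origins no gene was called. In pESCs against ESCs, 0 of 7 genes passed by limma, where 0.781% of all genes tested were called. Sycp3 had the smallest p of the 7, and its pESC libraries both lay above the ESC libraries. Its log2 difference was 1.13 (95% CI 0.57 to 1.68, adjusted p = 0.0644 from limma). It was called under 4 of 18 alternative analyses, with 1.13 to 1.46 there. For Sycp1 the difference was 0.05 (95% CI -0.28 to 0.37), for Syce1 -0.32 (-0.92 to 0.27), for Syce2 -0.01 (-0.65 to 0.62) and for Tex12 0.19 (-0.25 to 0.64). Sycp2 and Syce3 had at most 4 reads a library and allow no comparison at this depth.

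Between PGCLCs of the 2 origins the members moved in different directions. Sycp1 and Sycp3 were lower in pESC-PGCLCs, 2 of 7 genes called lower where 3.08% of all genes tested were called lower and 10.3% higher. That split over all genes, 2812 higher and 839 lower, depended on the scaling, with 1735 and 1316 under quantile normalization and 1460 and 1891 under median centring. Sycp1 was at 18.7 ± 0.526 TPM (SD, n = 2) in pESC-PGCLCs and 41.0 ± 0.677 TPM (SD, n = 2) in ESC-PGCLCs, a log2 fold change of -1.09 (SE 0.140, adjusted p = 0.00132 from limma). Sycp3 was at 776 ± 128 TPM and 1677 ± 36.3 TPM (SD, n = 2), a log2 fold change of -1.12 (SE 0.239, adjusted p = 0.0125 from limma). The difference in Sycp1 was called under all 18 alternatives. That in Sycp3 lost its call without ESC-PGCLC replicate 1 (-1.10, adjusted p = 0.0593), ESC-PGCLC replicate 2 (-1.14, adjusted p = 0.0572) or pESC-PGCLC replicate 2 (-0.95, adjusted p = 0.0857). The overlapping gene Chpt1 differed by -1.08 (adjusted p = 0.0117).

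Other members differed by less than the 2-fold minimum. Syce1 was higher in pESC-PGCLCs, at 220 ± 2.32 TPM against 111 ± 0.494 TPM (SD, n = 2), a log2 fold change of 0.98 (SE 0.257, adjusted p = 0.0289 from limma), just under the minimum. Tex12 was lower, at 289 ± 48.6 TPM against 486 ± 50.5 TPM (SD, n = 2), a log2 fold change of -0.75 (SE 0.192, adjusted p = 0.0256). Neither counted as called, but Tex12 was called under median centring (-1.16, adjusted p = 0.00292). Over the 18 alternatives Syce1 lay between 0.57 and 0.99 and Tex12 between -1.16 and -0.58. The differences in Sycp2, Syce2 and Syce3 were -0.17 (95% CI -0.54 to 0.19), 0.08 (-0.55 to 0.72) and 0.01 (-0.45 to 0.46). Relative to each other, the ratio of Sycp3 to Syce1 was 15.3 and 14.9 in ESC-PGCLCs, 3.91 and 3.14 in pESC-PGCLCs and 7.41 and 6.37 in PGCs. The ratio of Sycp1 to Syce1 was 0.363 and 0.374 in ESC-PGCLCs, 0.0825 and 0.0872 in pESC-PGCLCs and 0.276 and 0.162 in PGCs. Both ratios set a member that was lower in pESC-PGCLCs over Syce1, which was higher. Between the PGCLCs they therefore restate the differences of the single genes. The erythroid sums given above differed between these same groups, at 453 and 515 TPM in ESC-PGCLCs and 3274 and 2761 TPM in pESC-PGCLCs, and their part in the differences was not tested.

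Against PGCs, Sycp3 was the called member. It was higher in ESC-PGCLCs than in PGCs, with a log2 fold change of PGCs against ESC-PGCLCs of -1.06 (SE 0.239, adjusted p = 0.0140 from limma), 1 of 7 genes called lower where 1.88% of all genes tested were called lower and 12% higher. Over all genes the split was 3260 higher and 512 lower, 938 and 966 under quantile normalization and 712 and 2003 under median centring. The Sycp3 call was lost without either ESC-PGCLC library, without PGC replicate 1 (-0.78, adjusted p = 0.0677), with the compared groups alone (adjusted p = 0.0530) and under quantile normalization (-0.91). Sycp1 was also lower in PGCs, by less than 2-fold (-0.70, adjusted p = 0.00878), and was called under quantile normalization and median centring (-1.31 under each, adjusted p = 0.00145 under the first). Syce2 was lower by less than 2-fold too (-0.89, adjusted p = 0.0421), and it was called under median centring (-1.49) and without PGC replicate 2 (-1.37), while Tex12 was called under median centring (-1.04). The differences of Sycp2, Syce1, Syce3 and Tex12 were 0.24, 0.08, 0.09 and -0.44, with adjusted p between 0.126 and 0.884. In PGCs against pESC-PGCLCs, 0 of 7 genes were called by limma, where 3.67% of all genes tested were. Syce1 and Syce2 were lower in both PGC libraries than in both pESC-PGCLC libraries, with differences of -0.90 (95% CI -1.50 to -0.31, adjusted p = 0.0655) and -0.97 (-1.60 to -0.33, adjusted p = 0.0643), and without PGC replicate 2 both were called (-1.28 and -1.45). Sycp1 and Sycp2 differed by 0.39 (0.07 to 0.71) and 0.41 (0.05 to 0.78), and Sycp3, Syce3 and Tex12 by 0.06 (-0.49 to 0.62), 0.08 (-0.38 to 0.53) and 0.32 (-0.13 to 0.76).

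**Figure D3:**
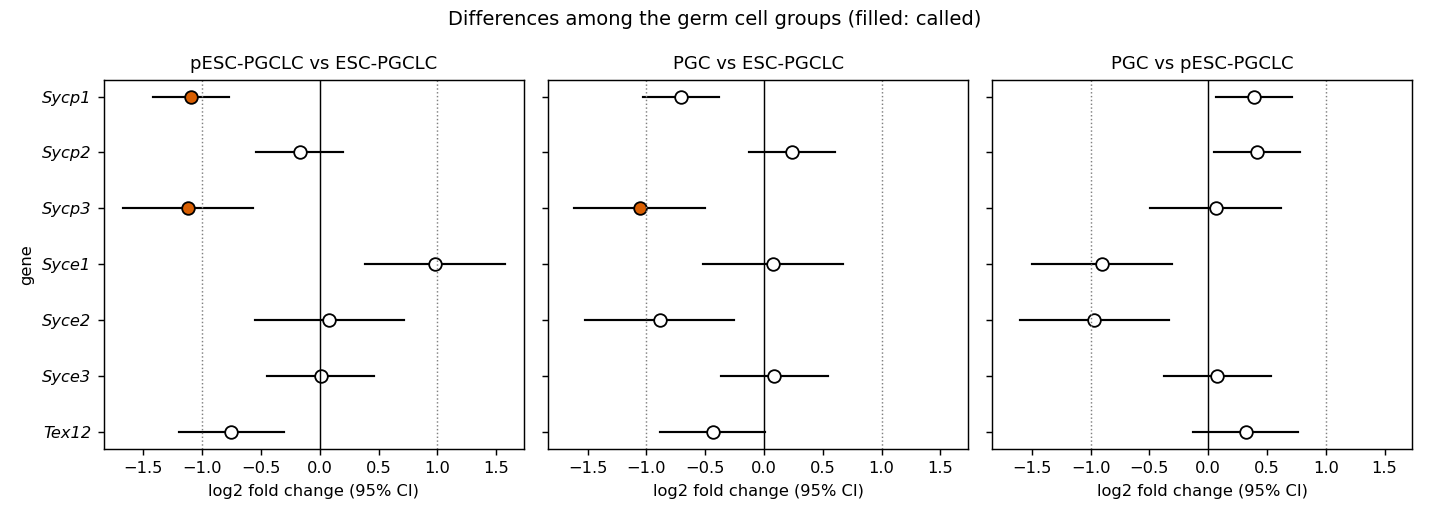
Log2 fold change with its 95% confidence interval (x axis) for each gene (y axis) in the 3 comparisons among germ cell groups. Dotted lines mark a 2-fold change and filled points are called genes, Sycp1 and Sycp3 between the PGCLCs and Sycp3 between PGCs and ESC-PGCLCs.

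In the main fit the size of the increase differed between the pESC and ESC series for 3 genes. The labels do not say how many lines each origin had, so origin and line cannot be told apart. The interaction, the change from pESCs to pESC-PGCLCs minus that from ESCs to ESC-PGCLCs, was called for 3 of 7 genes, where 19.1% of all genes tested were called. Over all genes 4236 were called higher and 961 lower, 2254 and 1627 under quantile normalization and 1727 and 4062 under median centring. Sycp3 rose by less from pESCs (interaction -2.25, SE 0.338, adjusted p = 0.00289 from limma), as did Sycp1 (-1.14, SE 0.198, adjusted p = 0.00539). Syce1 rose by more from pESCs (1.30, SE 0.364, adjusted p = 0.0377), but this call was lost under 11 of 18 alternatives, in which it lay between 0.56 and 1.32. The 2 others were called under all 18. For Sycp3 the interaction is the difference of -1.12 between the PGCLCs minus that of 1.13 between the stem cells, which was not called. The interaction of Tex12 was -0.95 (adjusted p = 0.0411), under the 2-fold minimum, and it was called with a pseudocount of 0.1, quantile normalization and median centring (-1.04, -1.35 and -1.69). Those of Sycp2, Syce2 and Syce3 were -0.13, 0.09 and 0.31 (adjusted p between 0.493 and 0.901). Sycp2 and Syce3 were at the level of single reads in both kinds of stem cell, so their interactions allow no conclusion.

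**Figure D4:**
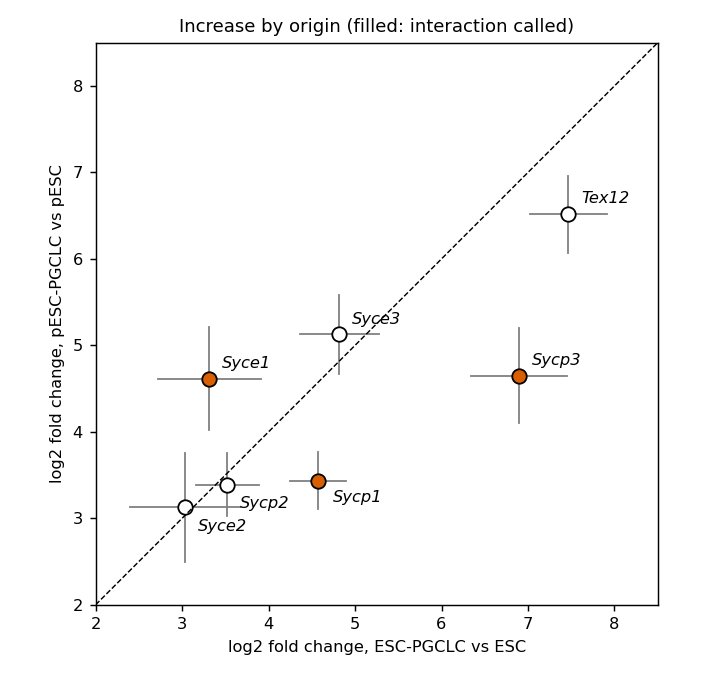
Log2 fold change from ESCs to ESC-PGCLCs (x axis) against that from pESCs to pESC-PGCLCs (y axis) for the 7 genes, with 95% confidence intervals, and filled points for a called interaction. Sycp1 and Sycp3 lie under the dashed line of equal change and Syce1 lies above it.

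Other genes of meiotic chromosomes were measured beside the 7. Of 12 genes of the chromosome axis, its cohesins and complex assembly, 8 were called higher and 1 lower in ESC-PGCLCs than in ESCs, where 14.5% of all genes tested were called lower, and 10 higher and 1 lower in pESC-PGCLCs than in pESCs, where 6.8% were. Smc1b, a meiosis-specific cohesin subunit, rose from 0.717 to 217 TPM in group means (log2 fold change 6.99) in ESC-PGCLCs and from 1.46 to 167 TPM (6.12) in pESC-PGCLCs. 4930447C04Rik, the symbol in the table for Six6os1, whose protein joins the central element, rose by 5.33 and 4.43, and Stag3, another meiotic cohesin subunit, by 4.29 and 4.04. Ccnb1ip1, which encodes the crossover factor HEI10, rose by 3.76 and 4.88. Sycp2l, a relative of Sycp2, was the called member that fell, by 1.22 and by 1.18 on the log2 scale, to at most 5 reads a library, and it was listed at 0 in PGCs.

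Of 10 genes of meiotic recombination, 5 were called higher and 1 lower in ESC-PGCLCs, and 5 higher and 0 lower in pESC-PGCLCs, beside 15.3% and 20.8% of all genes called higher and 14.5% and 6.8% called lower. Tex11, an X-linked gene for crossover formation, rose by 3.74 and 3.85, while Spo11, the gene for the enzyme that makes meiotic double-strand breaks, reached 2.56 and 3.93 TPM in group means. Hsf2bp, which encodes a partner of BRCA2 in meiotic recombination, fell by 1.44 in ESC-PGCLCs. Of 4 regulators of meiotic entry, 3 rose from each origin, namely Dazl, an RNA-binding protein gene of germ cells (6.92 and 6.10), Stra8, the retinoic acid-responsive gene of meiotic entry (5.65 and 5.86), and Zglp1, a gene of the oogenic programme (4.86 and 6.38). The other, Gm4969 (Meiosin), had at most 26 reads in any library. In PGCs, 9, 6 and 3 genes of these lists were called higher than in ESCs, and the same numbers than in pESCs, beside 23.4% and 26.9% of all genes. In each comparison 1 gene, Sycp2l, was called lower, where 2500 and 1987 of all 27259 genes tested were.

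Between the PGCLCs, the called partner genes were higher in pESC-PGCLCs on the TPM scale, and other scalings changed which genes these were. They were Rec8, the meiotic kleisin of cohesin (1.51, adjusted p = 0.00144 from limma), Fkbp6, an immunophilin gene of meiotic germ cells (1.45, adjusted p = 0.000720), Ccnb1ip1 (1.00, adjusted p = 0.0159), Hsf2bp (1.13, adjusted p = 0.00373) and Zglp1 (1.62, adjusted p = 0.00293), so 3 of 12, 1 of 10 and 1 of 4 genes, beside 10.3% of all genes. Rec8, Fkbp6 and Zglp1 were called higher under quantile normalization and median centring as well, and Ccnb1ip1 and Hsf2bp under neither. Among partners that were lower, 4930447C04Rik (-0.89, adjusted p = 0.00432) and Dazl (-0.66, adjusted p = 0.0395) missed the 2-fold minimum, and 4930447C04Rik was called lower under quantile normalization and median centring (-1.30 under each) and Dazl under median centring (-1.07). Rec8 was at 6.73 and 6.70 TPM in ESC-PGCLCs, 21.0 and 20.9 TPM in pESC-PGCLCs and 37.1 and 26.3 TPM in PGCs. Rec8 (2.06) and Fkbp6 (1.30) were also higher in PGCs than in ESC-PGCLCs. Between PGCs and pESC-PGCLCs 0 genes of the 3 lists were called by limma, beside 3.67% of all genes. Under median centring Ccnb1ip1 was called lower in PGCs there (-1.08), beside 821 of all 27259 genes tested. Rec8 and Fkbp6 in PGCs against ESC-PGCLCs stand beside 12% of all genes called higher, and under median centring the 12 axis and assembly genes gave 1 called higher and 3 lower. The interaction was called higher for Fkbp6 (1.60), Rec8 (1.53), Trip13, which encodes an ATPase that remodels HORMA domain proteins (1.13), Ccnb1ip1 (1.13), Hsf2bp (1.31) and Zglp1 (1.52), so 4 of 12, 1 of 10 and 1 of 4 genes beside 19.1% of all genes. Under quantile normalization Fkbp6 (1.05) and Rec8 (1.08) were still called higher. Hormad1, Smc1b, 4930447C04Rik and Dazl were called lower there (-1.27, -1.32, -1.48 and -1.09). Under median centring 0 of these genes were called higher, and Hormad1, Smc1b, 4930447C04Rik and Dazl were again called lower (-1.62, -1.61, -1.64 and -1.56). Between pESCs and ESCs 0 genes of the 3 lists were called by limma, beside 0.781% of all genes. Under median centring Hormad2 (1.07) and Stra8 (1.05) were called higher in pESCs, beside 161 of all 27259 genes tested.

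**Figure D5:**
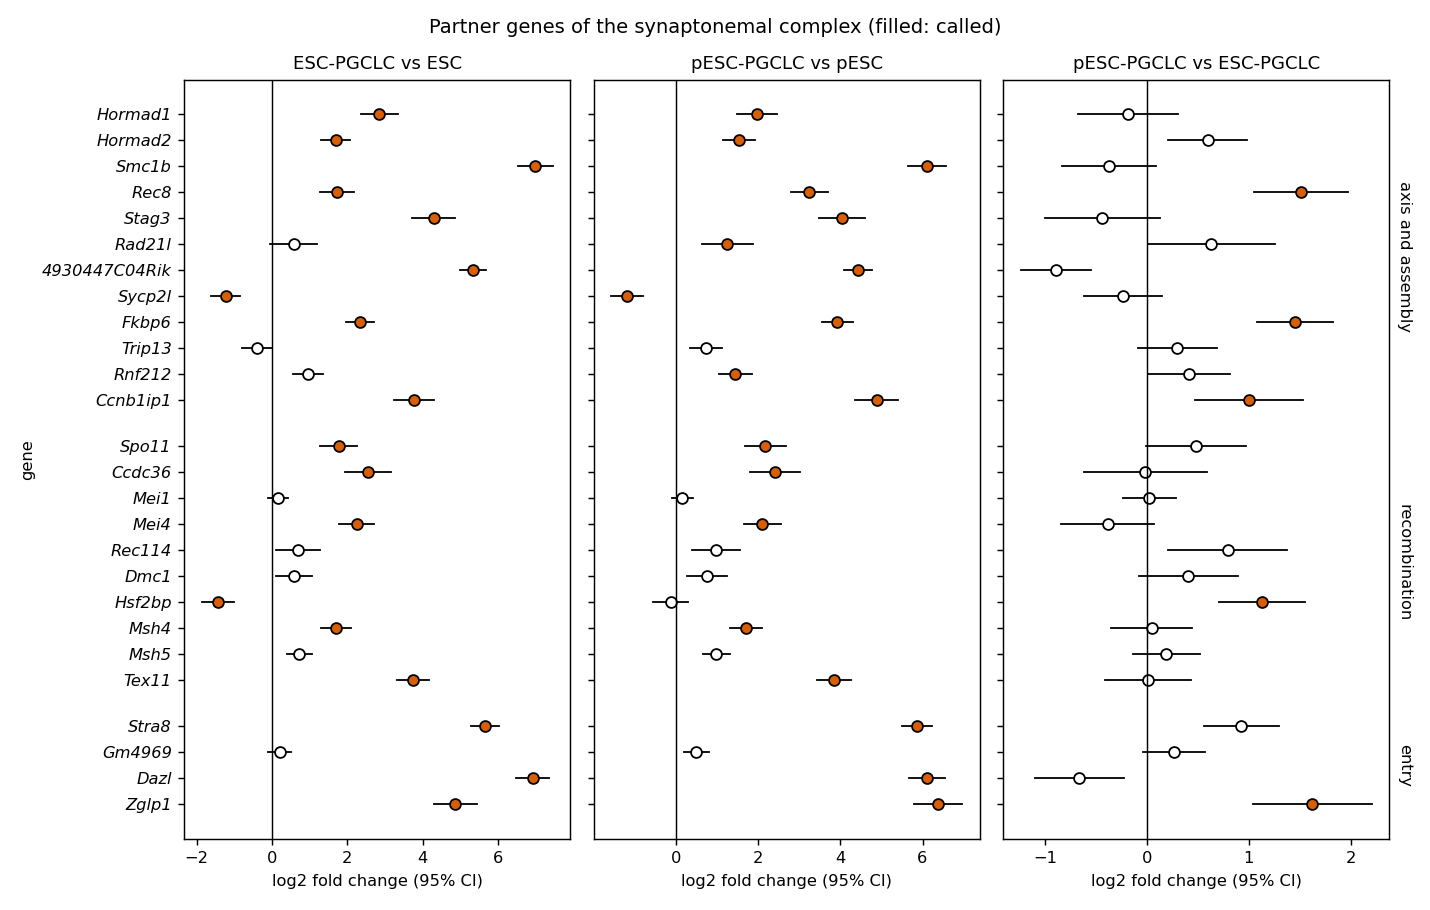
Log2 fold change with its 95% confidence interval (x axis) for the 26 genes of the 3 partner lists (y axis), from ESCs to ESC-PGCLCs, from pESCs to pESC-PGCLCs and between the PGCLCs. Filled points are called genes, and between the PGCLCs each filled point lies to the right of 0, while under median centring 4930447C04Rik and Dazl were called lower there.

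Among 18232 genes that reached a group mean of 1 TPM, those whose pattern was most like each member were ranked by Pearson's r over the 10 libraries. The libraries fall into stem cells and germ cells, so any gene that rises strongly has a high r, and the values are a description. For Sycp1 they were Gkap1, 4930447C04Rik (both 0.998) and Rock1 (0.996), and for Sycp2 they were Pdp1, Srsf12 and Reps2 (each 0.999). For Sycp3 they were Chpt1 (0.999), the gene that overlaps it, Gm10297 (0.996) and Ndufa6 (0.995). Syce1 was most like Ccnb1ip1 (0.998), Gab3 and Dync1i1 (both 0.997), each of which had its highest mean in pESC-PGCLCs, and Syce2 was most like Xlr5a (0.994), Eaf2 and Ppp1r36 (both 0.993). Syce3 was most like Rbm46, Gm11837 and Opn3 (each 0.998), and Tex12 was most like 1700048O20Rik, Necab1 and Gm49343 (each 0.998). No member was among the 3 genes most like another member. Between members r lay between 0.936, for Syce1 and Sycp1, and 0.995, for Syce3 and Tex12.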

How the data were processed

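RNA-seq of 10 mouse libraries was used, 2 for each of 5 groups. Per the study's methods the authors aligned reads to mm10 with Hisat2 and counted them on genes, and the submitters' processing notes also list Bowtie2, RSEM, DESeq2 and R 3.4.2. The deposited values are TPM, and each library sums to 1000000. The methods (Smart-seq2 on sorted cells) and the labels (a bulk kit) describe the library preparation differently.

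Exon lengths from GENCODE M21 turned 94.8% to 95.0% of the values into whole reads (tolerance 0.02 reads). The floor was 3 reads. In R 4.3.3, limma 3.58.1 fitted log2(TPM + 1) of 27259 genes that reached 0.1 TPM in 2 or more libraries, with 5 group means, variances that follow the mean, 5 residual and 2.81 prior degrees of freedom, over all 10 libraries. Calls needed an adjusted p under 0.05 and at least a 2-fold change. The scripts were run on simulated data with the same groups. Few genes were changed there between the PGCLC groups, and none of the abundant ones, so the run does not bear on the dependence on scaling. Figures were drawn with matplotlib 3.10.9.

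The 7 members were named in every comparison. Partner genes were named when called, at most 4 of a list and comparison with the largest change, and the 3 genes most like each member were named by Pearson's r. Members and lists were chosen with earlier results of these data known. Gm4969, Sycp2l, the fall of Hsf2bp, partners called only under another scaling (Hormad1 among them) and the printed promoters were chosen after their values were seen. As alternatives the pseudocount was 0.1, the filter 1 TPM or absent, and the others were quantile normalization, median centring, a replicate block, voom on recovered reads, the compared groups alone and leaving out each library. Columns of values of all 10 samples were used.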

Additional observations from a re-analysis of the deposited data

Results flagged for a closer look

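A test of the interaction of origin and differentiation drew attention to 3 of the 7 genes, whose increase to PGCLCs differed between the origins by limma at an adjusted p under 0.05 with at least a 2-fold difference. For Sycp3 the change from pESCs minus the change from ESCs was -2.25 on the log2 scale (adjusted p = 0.00289), between -2.99 and -1.99 over 18 alternatives, and both libraries of each PGCLC group were above both of their stem cell libraries. For Sycp1 it was -1.14 (adjusted p = 0.00539), between -1.88 and -1.02 over the alternatives. For Syce1 it was 1.3 (adjusted p = 0.0377), between 0.56 and 1.56 over the alternatives, with adjusted p between 0.0111 and 0.225. Over all genes tested the median interaction was 0.21, and 19.1% of genes were called. Groups of 2 libraries are too small to look for single libraries that stand apart.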

How the results depend on the processing

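The counts of 7 of 7 genes higher in ESC-PGCLCs than in ESCs, in pESC-PGCLCs than in pESCs and in PGCs than in either stem cell were the same in all 18 alternatives, and 991 of 1062 values of single genes kept their direction and side of the threshold. The count of called genes in pESCs against ESCs was 1, not 0, with a filter of 1 TPM, quantile normalization, median centring and voom on recovered reads. In PGCs against ESC-PGCLCs it was 4 under median centring and 0 with the compared groups alone, not 1, and in PGCs against pESC-PGCLCs it was 2 under median centring, not 0. Leaving out 1 library in turn gave 1 to 2 called genes between the PGCLCs (1 to 3 over all alternatives, with Tex12 called under median centring), 0 to 2 in PGCs against ESC-PGCLCs and 0 to 2 in PGCs against pESC-PGCLCs. The interaction gave 2 to 4 called genes over all alternatives. The median change of all genes moved with the scaling. In the main fit it was 0.12 between the PGCLCs, 0.27 for PGCs against ESC-PGCLCs and 0.21 for the interaction. After median centring it was -0.29, -0.34 and -0.54. Why the calls depended on the scaling was not tested.

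Changes of direction were limited to differences that were not called. Under median centring they were Syce1 (0.0129) and Syce2 (0.32) in pESCs against ESCs, Syce2 (-0.33) and Syce3 (-0.40) between the PGCLCs, Sycp2 (-0.36), Syce1 (-0.53) and Syce3 (-0.52) in PGCs against ESC-PGCLCs, Sycp3 (-0.13) and Syce3 (-0.12) in PGCs against pESC-PGCLCs, and the interaction of Syce2 (-0.65). Under quantile normalization they were Syce2 (0.21) in pESCs against ESCs, Syce2 (-0.0755) and Syce3 (-0.40) between the PGCLCs, Sycp2 (-0.38), Syce1 (-0.15) and Syce3 (-0.40) in PGCs against ESC-PGCLCs, Syce3 (-0.0033) in PGCs against pESC-PGCLCs, and the interaction of Syce2 (-0.29). With voom they were Syce2 (0.12), Syce2 (-0.0161) and Syce3 (-0.10), Syce1 (-0.0246) and Syce3 (-0.0433), and the interaction of Syce2 (-0.13), in the same order of comparisons. Leaving out 1 library in turn, the range crossed 0 for Sycp1 (-0.0741 to 0.17) and Syce2 (-0.11 to 0.0835) in pESCs against ESCs, Syce2 (-0.0060 to 0.17) and Syce3 (-0.0852 to 0.10) between the PGCLCs, Syce1 (-0.30 to 0.46) in PGCs against ESC-PGCLCs, Sycp3 (-0.21 to 0.34) and Syce3 (-0.014 to 0.17) in PGCs against pESC-PGCLCs, and the interaction of Syce2 (-0.0022 to 0.19). The cause was not tested.

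Replicate numbers recur across groups, but same-numbered libraries deviated together with correlations between -0.051 and 0.238 over 14839 genes, so the numbers were not taken to pair libraries. With replicate as a block the counts of called genes were the same as without it in each comparison, 0 for pESCs against ESCs, 2 between the PGCLCs, 7 for each germ cell group against stem cells, 1 and 0 for PGCs against ESC-PGCLCs and pESC-PGCLCs, and 3 for the interaction. Depth limits Sycp2 and Syce3 in stem cells, where at most 4 reads were found.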
